A study of Mus musculus with 6 samples.

Results

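The genes described here are 10 entries of the 23358 in the deposited gene table, taken by symbol. They are the MHC class II chains H2-Aa, H2-Ab1 and H2-Eb1, the peptide-loading chains H2-DMa and H2-DMb1, the invariant chain Cd74, the class II transactivator Ciita, and the Langerhans and dendritic cell genes Cd207, Flt3 and Batf3. All 10 passed the filter on low counts and were tested. RNA was measured in 6 spontaneous tumors from female mice, 3 of them in the Osx-Cre;NT3 line and 3 in the FSP1-Cre;NT3 line. Each is named here by its mouse number. All 6 tumors carried NT3, a transgene for NF-κB inducing kinase (NIK) without its TRAF3-binding domain, which Cre switches on. In Osx-Cre;NT3 mice Cre is driven by the Osterix promoter of osteoblast-lineage cells and was held back with doxycycline chow until weaning. In FSP1-Cre;NT3 mice it is driven by the promoter of S100a4, a gene of fibroblasts that leukocytes can also express. The Osx-Cre;NT3 tumors 13, 18 and 25 came from the trunk and appeared at 150, 168 and 115 days. The FSP1-Cre;NT3 tumors 27 and 36 were perineal and appeared at 101 and 52 days, while tumor 29 came from the trunk and appeared at 72 days. NT3 was on C57Bl/6J, Osx-Cre on mixed C57Bl/6J and CD1, and FSP1-Cre on FVB/n. Line, strain background, doxycycline chow before weaning and latency therefore cannot be told apart.

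MHC class II molecules are heterodimers of an α and a β chain that present peptides from engulfed proteins to CD4+ T cells. Cd74 holds the new dimer until lysosomal proteases remove it and H2-DM exchanges its remnant for a peptide. Ciita, recruited by RFX and NF-Y bound at the X and Y boxes of class II promoters, switches the set on. Langerhans cells, the antigen-presenting cells of the epidermis, carry langerin (Cd207) and class II, Flt3 is the receptor that dendritic cell precursors need, and Batf3 is a transcription factor of type 1 dendritic cells. Some type 1 dendritic cells of the dermis also carry langerin.

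Depth ran from 51824408 to 163297772 counts per tumor, and 3 counts corresponded to between 0.0184 and 0.0579 counts per 1000000 (CPM). Tumor 36 stood apart by its simple epithelium keratins, with a summed level of Krt8, Krt18 and Krt19 of 3586 CPM against 391 to 843 CPM in the other 5 tumors. Krt8 and Krt19 were highest there, at 2249 and 1091 CPM, but Krt18, at 245 CPM, was below its 444 CPM in tumor 18. Several differences are therefore also given without tumor 36. Ptprc, the pan-leukocyte gene, lay at 62.1, 91.7 and 61.2 CPM in tumors 13, 18 and 25, against 113, 52.8 and 115 CPM in tumors 27, 29 and 36. It was thus higher in both perineal tumors than in all 4 trunk tumors, as were 10.3% of all genes tested.

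Class II transcripts were abundant in every tumor. Reads per kilobase per 1000000 reads (RPKM), as deposited, put genes of different length on 1 scale. By mean RPKM over the 6 tumors, Cd74 ranked 68 of all entries, at 992 ± 370 (SD, n = 6). H2-Aa, the α chain of I-A, followed at 627 ± 344, its partner H2-Ab1 at 417 ± 198 and H2-Eb1, the β chain of I-E, at 385 ± 129. H2-DMa stood at 50.9 ± 24.1 and H2-DMb1 at 24.7 ± 14.4. The other members were far lower, with Cd207 at 7.90 ± 1.89, Ciita at 4.13 ± 2.95, Batf3 at 2.47 ± 1.13 and Flt3 at 1.74 ± 0.586. Within each tumor H2-Aa exceeded H2-Ab1, by between 1.30 and 1.65 times, and H2-DMa exceeded H2-DMb1, by between 1.83 and 2.66 times. The order of H2-Ab1 and H2-Eb1 changed between tumors, as the H2-Eb1 to H2-Ab1 ratio ran from 0.754 to 1.21. The ranges over the tumors also overlapped for Cd207 and Ciita, and for Batf3 and Flt3.

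The partner of H2-Eb1, the I-E α chain, is inactive in C57BL/6 mice, and its entry H2-Ea-ps held 0 counts in all 6 tumors. That allows at most the 3-count levels given above, for counting error only. H2-Eb1 itself lay between 423 CPM (tumor 25) and 1133 CPM (tumor 18). The less common class II genes were low. H2-Eb2 lay between 0.197 and 7.47 CPM, and H2-Oa, a chain of the DM inhibitor H2-O, between 3.21 and 21.2 CPM, each highest in tumor 18.

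H2-Aa stood at 619, 1506 and 303 CPM in the Osx-Cre;NT3 tumors 13, 18 and 25, and at 904, 446 and 1258 CPM in the FSP1-Cre;NT3 tumors 27, 29 and 36. H2-Ab1 stood at 509, 1016 and 260 CPM against 719, 351 and 878 CPM, in the same tumor order. Both lines therefore held a low and a high tumor, and their ranges overlapped. H2-Eb1, at 759, 1133 and 423 CPM against 982, 592 and 926 CPM, varied less, by 2.68 times between its lowest and highest tumor, where H2-Aa varied by 4.98 times. Cd74 stood at 1378, 2545 and 1039 CPM in the Osx-Cre;NT3 tumors and at 2065, 1138 and 2329 CPM in the FSP1-Cre;NT3 tumors. The DM chains followed the same course at a lower level. H2-DMa stood at 41.3, 68.5 and 24.7 CPM against 50.5, 27.9 and 85.1 CPM, and H2-DMb1 at 29.2, 56.9 and 15.3 CPM against 38.7, 21.5 and 76.4 CPM.

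Tumors 18, 36 and 27 held the 3 highest levels of each of these 6 genes, tumor 13 came next, then tumor 29, and tumor 25 was lowest for all 6. The plot of class II levels by tumor shows the shared course. The 6 genes are measured in the same libraries, so this order is a description of 6 tumors.

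**Figure D1:**
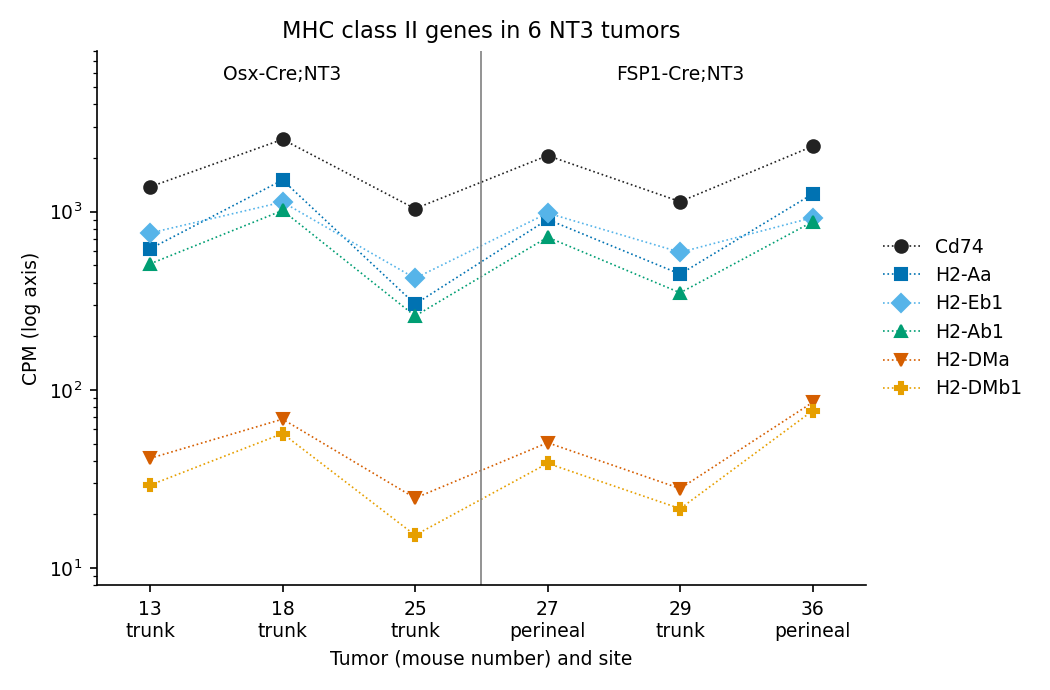
Level of 6 MHC class II genes in CPM (log axis) in each tumor, by mouse number and site, with Osx-Cre;NT3 left and FSP1-Cre;NT3 right of the vertical line. Points are single tumors, and dotted lines only join points of 1 gene. Each gene is lowest in tumor 25 and has its 3 highest levels in tumors 18, 27 and 36.

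The class II genes did not move in fixed proportion. The RPKM ratio of H2-Eb1 to H2-Aa was 0.482 in tumor 18 and 0.472 in tumor 36, and lay between 0.696 and 0.895 in the other 4 tumors. The ratio was thus lowest in the tumors with the highest H2-Aa, 1 from each line. Cd74 per H2-Ab1 was highest, at 3.37, in tumor 25, where both are lowest, and lay between 2.11 and 2.74 elsewhere. H2-DMb1 per H2-Ab1 was 0.0808 in tumor 36 and at most 0.0571 in the other 5. The counts were assigned on the C57BL/6J reference, and whether reads of CD1 or FVB/n alleles of these variable genes were assigned equally well was not tested.

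Promoter windows of RefSeq (GRCm38.p6) were available for 7 of the 10 genes, and for 6 of them the window ended within 100 bases of the deposited gene start. The 3 class II genes among these 6 are printed because they share the course described above, with Cd207 beside them. Each line gives 150 bases up to the start site. Capitals mark an X core, searched as AGNNACNNATG, and a Y core, searched as ATTGG. Both were chosen after the windows had been seen and were searched on both strands, and the last capitals of H2-Eb1 are a Y core on the other strand.
H2-Eb1, chr17:34305717-34305866, plus strand: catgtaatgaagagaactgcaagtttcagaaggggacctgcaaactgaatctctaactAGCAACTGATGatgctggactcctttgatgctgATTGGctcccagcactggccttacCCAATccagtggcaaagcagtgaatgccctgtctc
H2-DMb1, chr17:34153041-34153190, plus strand: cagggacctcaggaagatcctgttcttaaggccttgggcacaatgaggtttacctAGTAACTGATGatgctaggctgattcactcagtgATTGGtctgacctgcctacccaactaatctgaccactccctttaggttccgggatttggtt
H2-Aa, chr17:34287824-34287973, minus strand: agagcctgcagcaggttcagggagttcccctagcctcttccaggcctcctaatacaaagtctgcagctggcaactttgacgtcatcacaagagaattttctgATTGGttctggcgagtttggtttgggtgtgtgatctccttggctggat
Cd207, chr6:83677858-83678007, minus strand: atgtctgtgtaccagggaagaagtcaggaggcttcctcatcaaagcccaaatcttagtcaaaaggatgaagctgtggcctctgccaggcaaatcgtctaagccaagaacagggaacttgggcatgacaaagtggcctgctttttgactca

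H2-Eb1 held the X core from position -92 and the Y core from -59, and H2-DMb1 held them from -95 and -61, counted back from the start site. H2-Aa matched only the searched Y core, from -48, and Cd207, Flt3 and Batf3 matched neither. The X core was searched only in the letters given above. A window without a match is therefore not shown to lack an X box. Whether H2-Aa holds an X box with other letters was not tested. An X core followed by a Y core 20 to 40 bases downstream on the same strand was found in 15 of 32851 windows of 250 bases, or 0.0457%. Of the other class II genes with a window, H2-Eb2 and H2-Ob were among the 15, and H2-DMb2 and H2-Oa were not. Alone, the X core was in 2.60% and the Y core in 33.8% of the windows.

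The comparison of the lines asks whether tumors from the 2 Cre drivers differ, and that of the sites whether perineal differ from trunk tumors. Neither separated the class II chains. By edgeR's quasi-likelihood test, FSP1-Cre;NT3 exceeded Osx-Cre;NT3 by a log2 fold change of 0.16 (SE 0.43, adjusted p = 0.888) for Cd74, and by 0.10 (SE 0.63, adjusted p = 0.953) for H2-Aa. The largest class II difference between the lines was 0.43 (SE 0.60) for H2-DMb1. All 6 estimates turned negative, from -0.87 to -0.39, when only trunk tumors were compared, which sets tumor 29 alone against tumors 13, 18 and 25. Between sites the 6 estimates were all above 0, from 0.39 (SE 0.40) for H2-Eb1 to 0.90 (SE 0.53) for H2-DMb1. Their median was 0.58, beside -0.02 over all genes tested between sites, of which 48.5% were above 0. No class II chain reached an unadjusted p under 0.05 by edgeR in either contrast, and the perineal and trunk ranges overlapped for each of them. These differences moved with single tumors. Without tumor 36 they ranged from 0.32 for H2-DMa to 0.44 for Cd74. Without tumor 18 the 6 differences ranged from 0.69 for H2-Eb1 to 1.38 for H2-DMb1, and 5 of them, all but H2-Eb1, reached an unadjusted p under 0.05, with adjusted p from 0.354 to 0.447 by edgeR. Without tumor 25 they ranged from 0.16 for H2-Eb1 to 0.63 for H2-DMb1.

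In both contrasts 0 of the 10 members, and 0% of all genes tested, were called at an adjusted p under 0.05 by edgeR. At an unadjusted p under 0.05 between the lines, Ciita was higher and Cd207 lower in FSP1-Cre;NT3, where 7.31% of all genes tested were higher and 3.47% lower. Between the sites Ciita was higher in perineal tumors, as 8.88% of all genes tested were. DESeq2, run as an alternative, called Ciita higher in both contrasts and no other member. It called 2.72% of the genes it tested between the lines and 3.66% between the sites, with 2.28% higher in FSP1-Cre;NT3 and 3.42% higher in perineal tumors.

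**Figure D2:**
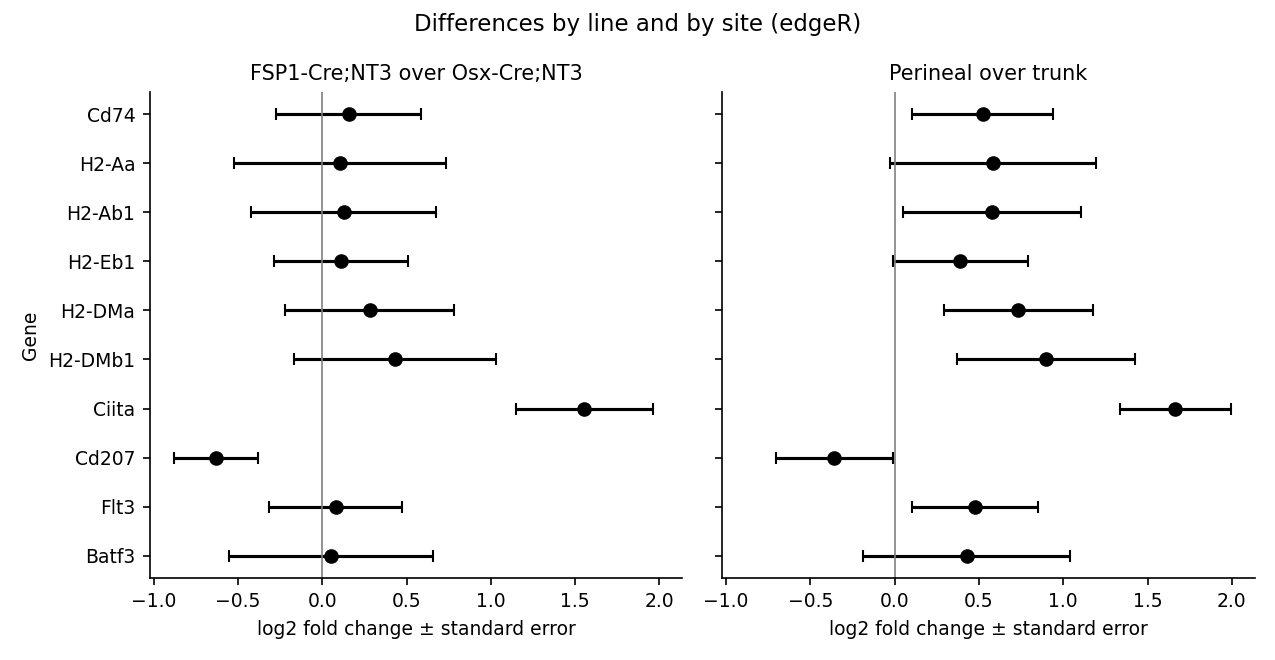
Log2 fold change ± standard error of the 10 genes by edgeR, FSP1-Cre;NT3 over Osx-Cre;NT3 (left, n = 3 and 3) and perineal over trunk (right, n = 2 and 4). The vertical grey line marks no difference. Ciita lies at 1.55 and 1.66, Cd207 at -0.63 and -0.36, and the class II chains between 0.10 and 0.90.

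Ciita, the transactivator, ordered the tumors differently from the class II chains. It stood at 9.61, 17.7 and 16.3 CPM in the Osx-Cre;NT3 tumors 13, 18 and 25. In the FSP1-Cre;NT3 tumors 27, 29 and 36 it stood at 53.9, 22.7 and 51.6 CPM. The lines did not overlap, the perineal tumors 27 and 36 were highest, and trunk tumor 29 lay nearest to the Osx-Cre;NT3 tumors. The FSP1-Cre;NT3 mean was 42.7 ± 17.4 CPM and the Osx-Cre;NT3 mean 14.5 ± 4.32 CPM (SD, n = 3 each). The log2 fold change was 1.55 (SE 0.41), with an unadjusted p of 0.00680 and an adjusted p of 0.441 by edgeR, and an adjusted p of 0.0216 by DESeq2. Between sites it was 1.66 (SE 0.33), with an adjusted p of 0.263 by edgeR and 0.00203 by DESeq2. Of all genes tested, 9.03% lay wholly higher in FSP1-Cre;NT3 and 10.3% wholly higher in perineal tumors. A single member of 10 in that state is near this background.

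The line and site differences of Ciita could be separated only in part. Within the FSP1-Cre;NT3 tumors, the 2 perineal tumors exceeded tumor 29 by a log2 fold change of 1.21 (SE 0.29). Within the trunk tumors, tumor 29 exceeded the 3 Osx-Cre;NT3 tumors by 0.64 (SE 0.46). Each of these fits has 1 tumor on 1 side, which was assumed to vary like the others, and neither passed adjustment by edgeR (adjusted p = 0.993 and 1.00). Without tumor 36 the line difference was 1.40 and the site difference 1.70. Ciita transcripts start at several promoters in different cell types, and the gene counts do not separate them.

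**Figure D3:**
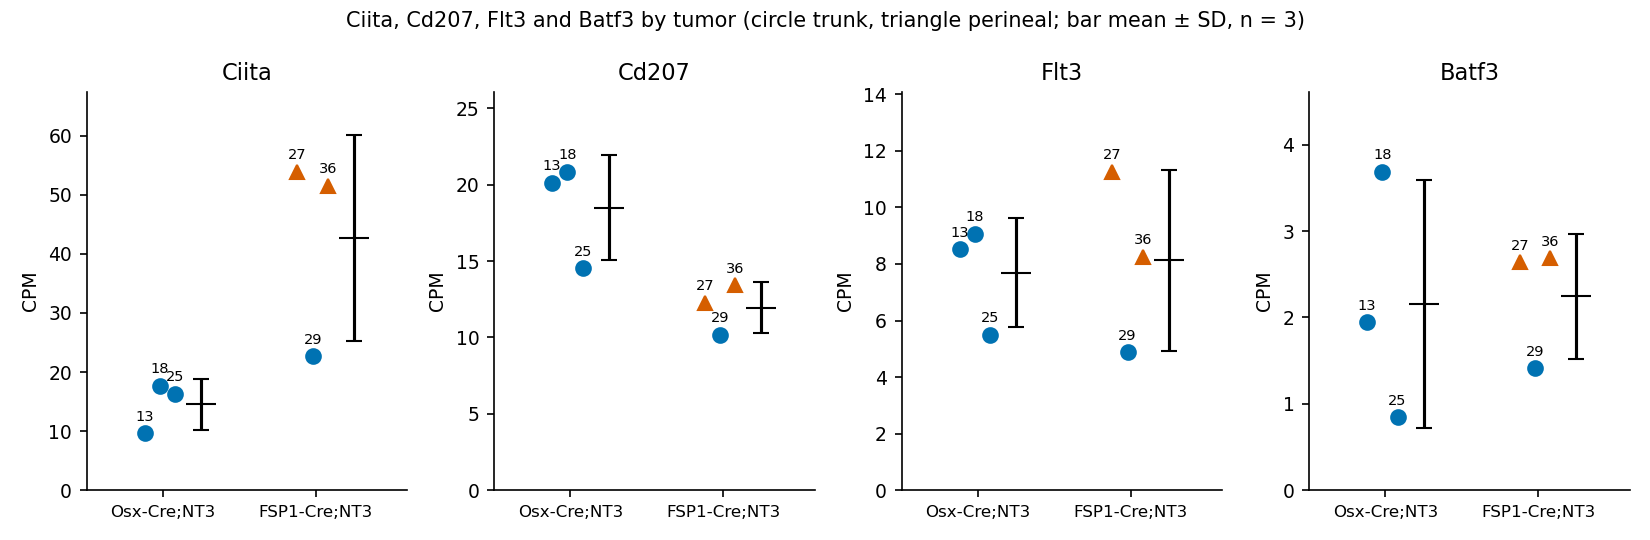
Ciita, Cd207, Flt3 and Batf3 in CPM (linear axes from 0) in each tumor, by line, with circles for trunk and triangles for perineal tumors and the mouse number above each point. Black bars give mean ± SD (n = 3 tumors). Ciita lies at 22.7 CPM or above in FSP1-Cre;NT3 and at 17.7 CPM or below in Osx-Cre;NT3 tumors, and Cd207 lies the other way.

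Tumor 18 had the highest Cd74 with Ciita at only 17.7 CPM. The RPKM ratio of Cd74 to Ciita was 577, 579 and 256 in tumors 13, 18 and 25, against 154, 202 and 182 in tumors 27, 29 and 36. All FSP1-Cre;NT3 tumors thus had fewer Cd74 transcripts per Ciita transcript than any Osx-Cre;NT3 tumor. Of the other genes tested, 49.3% likewise had a ratio to Ciita wholly lower in FSP1-Cre;NT3. Across the 6 tumors the log2 CPM of Cd74 and Ciita had a Pearson r of 0.516 (exact permutation p = 0.304, adjusted p = 0.507 over 5 relations) and a Spearman rho of 0.371 (exact permutation p = 0.497). Cd74 went closer with Ptprc, with r = 0.895 (exact permutation p = 0.0667, adjusted p = 0.167) and rho = 0.771 (exact permutation p = 0.103). The relation to Ptprc was 0.990 without tumors 18 and 25, the farthest from the median of Cd74, and that to Ciita 0.765. None of the 5 relations passed adjustment, and no test was made of whether these 2 correlations differ.

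The RPKM ratio of Cd74 to Ptprc overlapped between lines and sites, from 68.0 in tumor 25 to 111 in tumor 18. Set against Ptprc, Ciita still separated the lines, at 0.154, 0.192 and 0.265 in tumors 13, 18 and 25, against 0.475, 0.427 and 0.444 in tumors 27, 29 and 36. Tumor 29 then lay with the perineal tumors. Of the other genes tested, 3.77% had a ratio to Ptprc wholly higher in FSP1-Cre;NT3 and 1.19% wholly higher in perineal tumors. In bulk tumors, fewer cells of a type and less RNA per cell cannot be told apart.

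**Figure D4:**
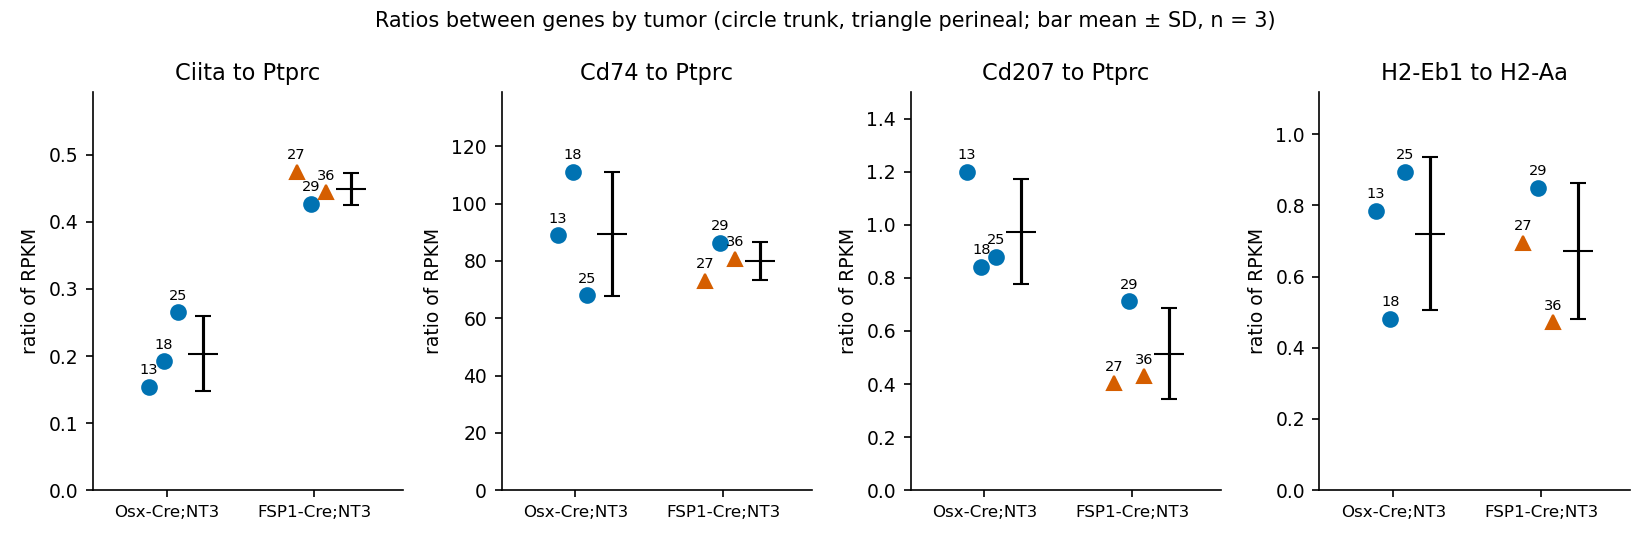
Ratios of deposited RPKM values between genes in each tumor, by line, with circles for trunk and triangles for perineal tumors and black bars for mean ± SD (n = 3 tumors). Ciita to Ptprc lies at 0.427 or above in FSP1-Cre;NT3 and 0.265 or below in Osx-Cre;NT3 tumors, Cd207 to Ptprc lies the other way, Cd74 to Ptprc overlaps, and H2-Eb1 to H2-Aa is lowest in tumors 18 and 36.

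Among the other genes that control class II transcription (Rfx5, Rfxap, Rfxank, Nfya, Nfyb, Nfyc and Creb1), none reached an unadjusted p under 0.05 in either contrast by edgeR. Ciita was the 1 gene of 8 on this list that did, and 0 of 8 were called. Rfx5, the DNA-binding subunit of RFX, lay between 26.4 CPM in tumor 18 and 46.0 CPM in tumor 25, the tumors with the highest and lowest H2-Aa. Of the 7 genes of the interferon γ axis, which induces Ciita, 0 were called in either contrast. Ifng itself was at most 1.82 CPM, in tumor 18, and at least 0.359 CPM, in tumor 29. Ifngr2, a chain of its receptor, was lower in all FSP1-Cre;NT3 tumors, with a log2 fold change of -0.46 (SE 0.19, adjusted p = 0.458 by edgeR). Of all genes tested, 7.97% likewise lay wholly lower in that line.

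Of the 8 genes of antigen processing, 0 were called. Ctss, the protease that makes the last cuts in Cd74, stood at 832, 1015 and 436 CPM in tumors 13, 18 and 25, against 416, 376 and 644 CPM in tumors 27, 29 and 36, so the lines overlapped. Ctsd, a lysosomal aspartyl protease, did not overlap between lines or sites. It was lower in FSP1-Cre;NT3 by a log2 fold change of -0.98 (SE 0.32, adjusted p = 0.458 by edgeR). Of all genes tested, 7.97% lay wholly lower in FSP1-Cre;NT3 and 9.36% wholly lower in perineal tumors. A single gene of 8 in that state is near this background. On the whole list 2 genes had a positive and 6 a negative log2 fold change between lines, and 4 and 4 between sites.

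**Figure D5:**
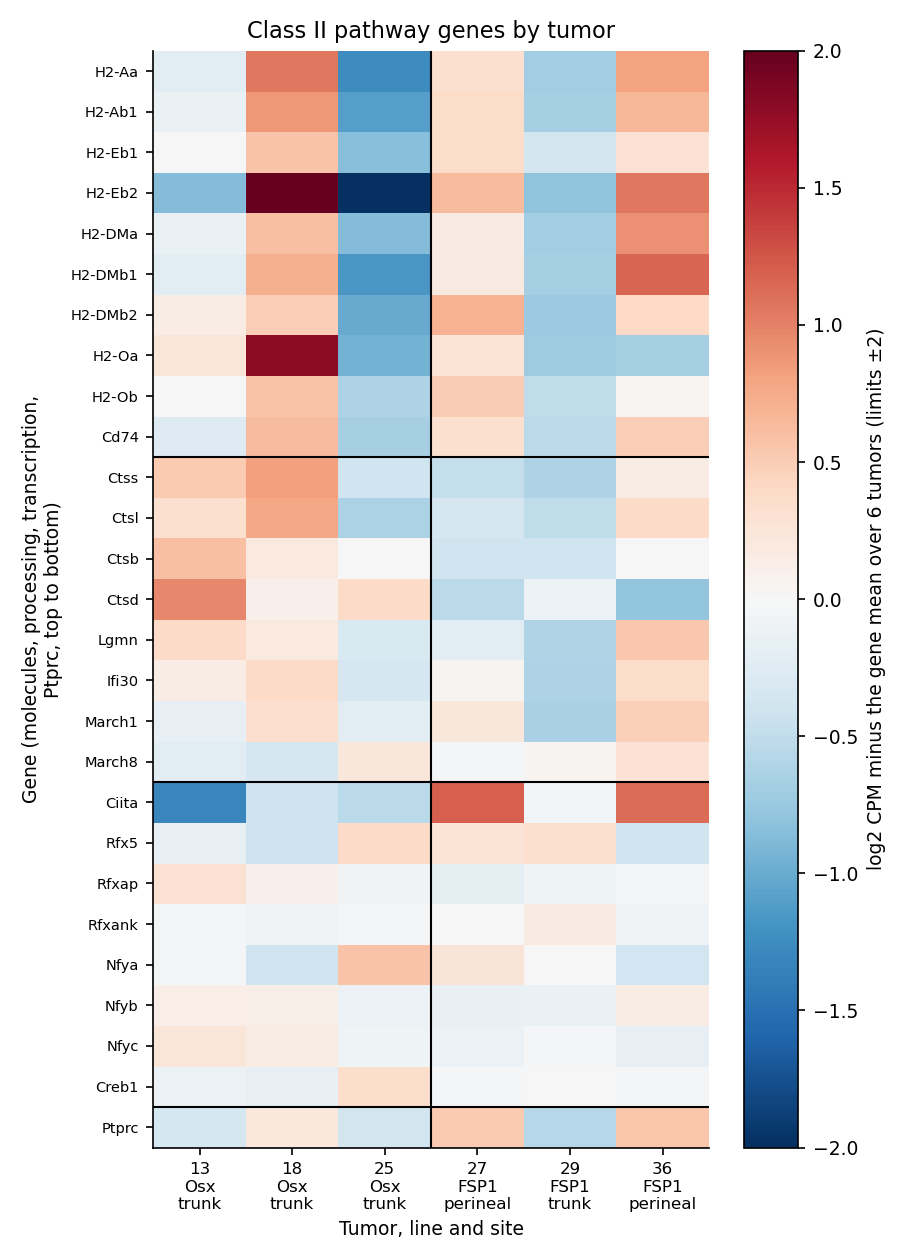
Log2 CPM of class II pathway genes in each tumor minus the mean of that gene over the 6 tumors, red above and blue below the mean, with colors limited to ±2. Columns are tumors with line and site, and black lines separate the class II molecules, processing, transcription and Ptprc. Most class II molecules are red in tumor 18 and blue in tumor 25, while Ciita is red in tumors 27 and 36.

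Cd207 was detected in every tumor at a low level, and was the 1 member lower in FSP1-Cre;NT3. It stood at 20.1, 20.9 and 14.5 CPM in the Osx-Cre;NT3 tumors 13, 18 and 25, and at 12.3, 10.2 and 13.4 CPM in the FSP1-Cre;NT3 tumors 27, 29 and 36. The lines did not overlap, though tumor 25 lay close to tumor 36. The means were 18.5 ± 3.46 and 11.9 ± 1.65 CPM (SD, n = 3 each). The log2 fold change was -0.63 (SE 0.25), with an unadjusted p of 0.0396 and an adjusted p of 0.458 by edgeR. Of all genes tested, 7.97% lay wholly lower in FSP1-Cre;NT3. Within trunk tumors the difference was -0.87 (SE 0.43), and between sites it was -0.36 (SE 0.35), with overlapping ranges. Per Ptprc, by RPKM, Cd207 stood at 1.20, 0.842 and 0.879 in the Osx-Cre;NT3 tumors and at 0.402, 0.712 and 0.430 in the FSP1-Cre;NT3 tumors, where 2.23% of the other genes tested had a ratio wholly lower.

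The label of Langerhans cells rests on Cd207 together with genes that other cells of the tumors can express. Of 11 genes on the Langerhans list, 0 were called between the lines, and 0 between the sites. In FSP1-Cre;NT3, 8 of the 11 had a positive and 3 a negative log2 fold change. In perineal tumors 9 were positive and 2 negative, and 6 lay wholly higher than in trunk tumors. Over all genes tested, 51.1% were positive between lines, 48.5% between sites, and 10.3% lay wholly higher in perineal tumors. Cd207 and Cd24a were lower in FSP1-Cre;NT3 at an unadjusted p under 0.05. Ly75, the endocytic receptor DEC-205, and Runx3, a transcription factor of the lineage, were higher in perineal tumors at that level. Without tumor 36 the edgeR unadjusted p was 0.0372 for Cd207 and 0.0121 for Cd24a between lines, and 0.0598 for Ly75 and 0.0791 for Runx3 between sites. Epcam, which epithelium also expresses, lay between 174 CPM (tumor 27) and 677 CPM (tumor 36). Between the lines its log2 fold change was 0.02, and without tumor 36 it was -0.94 (SE 0.22, adjusted p = 0.680 by edgeR). The summed simple epithelium keratins stood at 634, 843 and 640 CPM in tumors 13, 18 and 25. In tumors 27, 29 and 36 they stood at 391, 401 and 3586 CPM, so Epcam ran with these epithelial genes. Which cells the Epcam transcripts came from was not tested. The type 1 dendritic cell genes Xcr1 and Clec9a were present in all tumors, at 6.28 to 12.6 and 2.72 to 5.07 CPM. Cd207 alone therefore does not tell Langerhans cells from langerin-bearing dermal cells here. The study considers skin left over the tumors the likely source of their epidermal genes. Whether Cd207 came from such skin or from the tumors was not tested. Cd207 and the keratinocyte gene Krt14 had an r of 0.338 across the 6 tumors (exact permutation p = 0.524, adjusted p = 0.524) and a rho of 0.257 (exact permutation p = 0.658). The r was -0.62 without tumors 13 and 18, the farthest from the median of Cd207, and 0.0937 to 0.817 with single tumors left out. Cd74 and Cd207 had an r of 0.305 (exact permutation p = 0.488, adjusted p = 0.524) and a rho of 0.371 (exact permutation p = 0.497), and r was 0.0344 without tumors 18 and 25.

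Flt3 stood at 8.53, 9.07 and 5.49 CPM in the Osx-Cre;NT3 tumors and at 11.3, 4.87 and 8.25 CPM in the FSP1-Cre;NT3 tumors, which overlap. Batf3 stood at 1.95, 3.69 and 0.845 CPM against 2.64, 1.41 and 2.69 CPM. Batf3 ranked the tumors as Cd74 did, with tumor 18 highest and tumor 25 lowest. The line differences were 0.08 (SE 0.40) for Flt3 and 0.05 (SE 0.60) for Batf3 on the log2 scale, within their errors. Flt3 and Batf3 had an r of 0.797 (exact permutation p = 0.0667, adjusted p = 0.167) and a rho of 0.657 (exact permutation p = 0.175). The r was 0.147 without tumors 25 and 29, the farthest from the median of Flt3, and 0.756 to 0.837 with single tumors left out. Leaving out the 2 farthest tumors narrows the range of Flt3, so the lower r does not show that the relation rested on them. Of the 9 genes on the type 1 dendritic cell list and the 4 general dendritic cell genes, 0 were called.

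Among the lists of other antigen-presenting cells, 0 genes were called by edgeR, and the type 2 dendritic cell list was the 1 whose genes all had the sign of Ciita. All 7 genes on the type 2 dendritic cell list had a positive log2 fold change in FSP1-Cre;NT3, with a median of 0.98, beside a median of 0.01 over all genes tested, of which 51.1% were positive. All 7 were also positive in perineal tumors, with a median of 1.28. Without tumor 36 the medians were 0.60 between lines, with 6 of 7 genes positive, and 0.79 between sites. Between the lines, positive genes numbered 4 of 9 on the type 1 dendritic cell list, 1 of 4 on the general dendritic cell list, 3 of 9 tested on the mature list and 2 of 5 on the plasmacytoid list. Between the sites they numbered 6 of 9, 1 of 4, 4 of 9 tested and 3 of 5 on these lists, beside 48.5% of all genes tested. In perineal tumors 6 of 10 macrophage genes and 4 of 5 B cell genes were also positive, the B cell list with a median of 2.01. A positive sign in perineal tumors was thus not particular to the type 2 list. Irf4, a transcription factor of type 2 dendritic cells, stood at 0.745, 2.27 and 1.01 CPM in tumors 13, 18 and 25, against 5.65, 2.13 and 11.1 CPM in tumors 27, 29 and 36. Its log2 fold change between lines was 2.22, and 1.52 without tumor 36. The summed level of the list was 190 to 196 CPM in Osx-Cre;NT3 and 171 to 571 CPM in FSP1-Cre;NT3 tumors, with 233 CPM of the 571 in tumor 36 from Klf4, which epithelium also expresses. Mrc1, the mannose receptor of macrophages, stood at 16.2, 42.5 and 18.8 CPM in the Osx-Cre;NT3 tumors and at 114, 45.9 and 243 CPM in the FSP1-Cre;NT3 tumors, with no overlap. The whole macrophage list did not follow it, as 4 of its 10 genes had a positive and 6 a negative log2 fold change in FSP1-Cre;NT3, and its summed level overlapped, at 908 to 1638 against 811 to 1466 CPM. The log2 fold change of Mrc1 between lines was 2.38, and 1.63 without tumor 36. Of all genes tested, 9.03% lay wholly higher in FSP1-Cre;NT3, as Mrc1 did. The B cell gene Ms4a1 was at most 1.09 CPM, in tumor 36. The summed B cell list ran from 7.04 to 12.8 CPM in Osx-Cre;NT3 and from 9.03 to 16.01 CPM in FSP1-Cre;NT3 tumors, most of it Cd79b. The part of these cell types in the levels of Ciita was not tested.

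The genes whose log2 CPM ran closest to the mean of the 6 class II genes over the 6 tumors, among 14152 genes, were Cd69 (r = 0.998), Klrb1b (r = 0.991), Srr (r = 0.991), Cd72 (r = 0.989) and Mthfd2 (r = 0.987). Cd69 and Klrb1b are surface proteins of activated and cytotoxic lymphocytes, and Cd72 is a B cell surface protein. Cd69 itself was low, between 1.83 CPM (tumor 25) and 6.13 CPM (tumor 36). Closest to Cd207 was Ubxn8, with r = 0.992, at 17.3 CPM in tumor 29 and up to 28.6 CPM in tumor 18. These are the highest of many values over 6 tumors, given as a description.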

How the data were processed

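Total RNA of 6 tumors was sequenced by the authors on a HiSeq2500, and reads were aligned to mm10. The study's methods name HISAT2 and featureCounts, while the submitters' processing notes name bcl2fastq, TopHat2 2.0.6 and HTSeq, so which tools made the table is unclear, and strandedness and annotation were not given in the sources used here. Tumors had been trimmed of gross overlying tissue and screened by qPCR for blood and monocyte genes. The study nevertheless considers the skin development terms among its tumor genes likely to reflect skin left over the tumors. The deposited table holds raw counts per gene, all of them even, and the deposited RPKM values computed by the authors. If an even count arises from mates counted singly, the 3-count levels would be higher. These levels cover counting error only.

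Counts were tested on the whole table with edgeR 4.0.16 in R 4.3.3 (filterByExpr, TMM, glmQLFit, glmQLFTest), with Benjamini-Hochberg adjustment over 16415 genes between lines and 16971 between sites. SE is the log2 fold change divided by the root of its F. CPM used TMM-scaled library sizes, and correlations used log2 CPM with a prior count of 2 and two-sided exact permutation tests over pairings (scipy 1.17.1). RPKM served for ratios between genes. DESeq2 1.42.0, other scalings and filters, covariates and leaving out each tumor were alternatives. The fits were tested on simulated data with 200 genes changed. Of 4-fold changes, edgeR called 38% between lines and 10% between sites, with 4 and 1 unchanged genes called. DESeq2 called 72% and 66% of them, with 78 and 89 unchanged genes called. A gene not called by edgeR is thus not shown to be unchanged, and DESeq2 calls include unchanged genes.

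The 10 members and the 16 marker lists (107 genes, all found, 3 under older symbols) were chosen with earlier results of these data known. Named genes were the members, list genes as examples, and the 5 genes most like the class II mean and Cd207 among genes of at least 1 CPM. Examples within lists were chosen after their values were seen. Of the 23358 entries, 43 repeat a symbol and stayed separate. Each tumor is from 1 mouse. H2 genes resemble each other, so reads that they share could be split between them. Some genes on the lists are not reported here.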

Additional observations from a re-analysis of the deposited data

Results flagged for a closer look

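Single tumors far from the others were searched for in 302 sets of values, for genes, RPKM ratios and summed marker lists over all 6 tumors and over the 4 trunk tumors. The gap to the nearest tumor exceeded Dixon's critical value in 9 of them, where chance gives about 1 in 20. None of the 10 members was among the 9. The H2-DMb1 to H2-Ab1 ratio of RPKM values stood apart in tumor 36, at 0.0808. The simple epithelium list of tumor 36, at 3586 CPM in sum, did so too, with Krt8 at 2249 CPM and Krt19 at 1091 CPM. Klf4 was high in tumor 36, at 233 CPM, and Relb low, at 85.3 CPM. Rfxank, a subunit of RFX, was highest in tumor 29, at 20.1 CPM, and Creb1 in tumor 25, at 88.8 CPM. Among the trunk tumors, Krt5 was lowest in tumor 18, at 3299 CPM.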

How the results depend on the processing

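No paired analysis was possible because the lines share no mouse numbers. DESeq2 called 420 genes between lines (352 higher in FSP1-Cre;NT3) and 605 between sites (566 higher in perineal tumors) where edgeR called 0, and Ciita was the only member called by it. Leaving out 1 tumor gave 0 edgeR calls between lines each time, and from 0 to 567 between sites. The 567 came without tumor 27, which leaves tumor 36 as the lone perineal tumor, assumed to vary like the others, and 2 came without tumor 25. Other scalings, filters and halved counts changed no direction of a member. With site as a covariate, the line differences in log2 fold change reversed to -0.91 (H2-Aa), -0.81 (H2-Ab1), -0.42 (H2-Eb1), -0.72 (H2-DMa), -0.70 (H2-DMb1), -0.58 (Cd74), -0.69 (Flt3) and -0.66 (Batf3). With trunk tumors only they were -0.87, -0.77, -0.39, -0.69, -0.66, -0.55, -0.67 and -0.63 in the same order. With tumors left out in turn they ran from -0.35 to 0.91, -0.29 to 0.75, -0.24 to 0.49, -0.19 to 0.72, -0.17 to 1.03, -0.15 to 0.60, -0.26 to 0.31 and -0.39 to 0.68. The highest of these came without tumor 18 for all but Flt3, and the cause was not tested. Cd207 between sites reversed to 0.32 with line as a covariate and to 0.33 within FSP1-Cre;NT3 tumors. Ciita was higher in FSP1-Cre;NT3 and in perineal tumors under every alternative run, at 1.33 to 1.83 between lines and 1.48 to 1.83 between sites with tumors left out, where its edgeR adjusted p ran from 0.137 to 0.845 and from 0.135 to 1.00. Cd207 stayed lower in FSP1-Cre;NT3 under every alternative. The r of Cd74 and Cd207 ran from -0.0449 (without tumor 18) to 0.523 with single tumors left out, and no other relation changed sign with 1 tumor left out. By alternatives added after seeing the data, without tumor 36 Epcam reversed to -0.94 between lines and to -0.77 between sites. Between sites, the class II differences ran with tumors left out from 0.28 to 1.24 (H2-Aa), 0.30 to 1.09 (H2-Ab1), 0.16 to 0.69 (H2-Eb1), 0.32 to 1.11 (H2-DMa), 0.33 to 1.38 (H2-DMb1) and 0.33 to 0.89 (Cd74).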

Other observations

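By a search added after its values had been seen, the genes whose log2 CPM ran closest to Ciita over the 6 tumors were Pbx3, Igfbp5, Siglec1, Pim1 and Fzd1. Siglec1, the sialoadhesin of tissue macrophages, stood at 1.49, 4.44 and 3.58 CPM in the Osx-Cre;NT3 tumors 13, 18 and 25 and at 14.03, 4.57 and 13.6 CPM in the FSP1-Cre;NT3 tumors 27, 29 and 36. Igfbp5, a secreted IGF-binding protein, stood at 15.98, 35.2 and 45.2 CPM against 316, 54.6 and 247 CPM. Both perineal tumors were highest for each, and tumor 29 lay just above the highest Osx-Cre;NT3 tumor, as it did for Ciita. These values are a description of 6 tumors.

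The maturation genes of dendritic cells gave no call in either contrast by edgeR. Ccr7, the receptor that brings dendritic cells to lymph nodes, stood at 2.15, 11.5 and 1.80 CPM in tumors 13, 18 and 25 and at 13.3, 4.31 and 7.41 CPM in tumors 27, 29 and 36, so that tumor 25 was lowest here too. Lamp3 was at most 0.207 CPM. Relb, an alternative NF-κB subunit, lay between 195 and 229.5 CPM in 5 tumors and at 85.3 CPM in tumor 36. Of the 5 genes on the plasmacytoid list, 2 had a positive and 3 a negative log2 fold change in FSP1-Cre;NT3, and 0 were called. Bst2, which other cells also express, had a log2 fold change of -1.08, Siglech, a defining gene of plasmacytoid cells, -0.75, and Tcf4, also expressed elsewhere, 0.99. Tcf4 stood at 39.7 to 49.2 CPM in Osx-Cre;NT3 and 69.4 to 105 CPM in FSP1-Cre;NT3 tumors. Siglech lay between 1.69 and 6.42 CPM with overlapping lines. Of the 6 T cell genes 0 were called, and their summed level was highest in tumor 18, at 164 CPM, and lowest in tumor 25, at 53.5 CPM, the tumors with the highest and lowest Cd74. The summed basal keratinocyte list ran from 9851 to 13991 CPM in Osx-Cre;NT3 and from 5353 to 12470 CPM in FSP1-Cre;NT3 tumors.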
